A study of Mus musculus with 384 samples.

Results

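In all, 7 genes that encode subunits of the GABA-A receptor were followed through single mouse retinal cells: the alpha subunits Gabra2, Gabra3 and Gabra5, the beta subunits Gabrb1 and Gabrb2, and the gamma subunits Gabrg1 and Gabrg3. They were taken as a gene family by name, and are 7 of the 32813 genes measured and 7 of the 16 alpha, beta, gamma, delta, epsilon, pi and theta subunit genes in the data. The cells came from 4 retinas of 2 mice at postnatal day 17, retinas 1la and 1Ra of mouse 1 and 2la and 2Ra of mouse 2. Both mice carried Kcng4-cre and Thy1-stop-YFP Line#1, a fluorescent reporter that Cre switches on, so a yellow fluorescent cell is one in which Cre, driven from the Kcng4 locus, has been active and the Thy1 promoter is read, and this need not be 1 cell type. Cells were sorted by fluorescence into plates, 96 per retina, and sequenced one by one with Smart-seq2, a full-length method without molecular identifiers; 383 of 384 cells had values. Of these, 321 had at least 3000 genes at an expected count of 1 or more, and they were grouped by which of 3 marker genes was at 20 TPM or more (a length-corrected transcript level scaled to a fixed total per cell). There were 59 Ddit4l-only, 60 Vsx1-only and 151 Sox6-only cells, while 18 cells had 2 or 3 of the markers, 33 had none, and 62 wells had under 3000 genes. Every retina gave cells of each marker group, from 10 to 20 Ddit4l-only, 12 to 18 Vsx1-only and 30 to 46 Sox6-only cells.

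The GABA-A receptor is a chloride channel opened by the inhibitory transmitter GABA and built as a ring of subunits, most often alpha, beta and gamma together. The alpha and beta subunits form the GABA binding sites, and the gamma subunit is needed for clustering at many synapses and for the benzodiazepine site that it shares with an alpha subunit. Bipolar cells carry signals from photoreceptors to ganglion cells, and amacrine cells inhibit their axon terminals in part through GABA-A receptors, beside the GABA-C receptors built of rho subunits that bipolar cells are known for. The alpha2 and alpha3 subunits belong to the receptors classed as synaptic in many neurons, alpha5 is best known from extrasynaptic receptors of the hippocampus, and beta2 is among the common beta subunits of the brain.

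The genes lie in 4 places of the genome (GENCODE annotation of GRCm38, the assembly called mm10). Gabrg1 (chr5:70751047-70842617, minus strand), Gabra2 (chr5:70957597-71095849, minus strand) and Gabrb1 (chr5:71658113-72149037, plus strand) are neighbours on chromosome 5. Gabrg3 (chr7:56716465-57387188) and Gabra5 (chr7:57407672-57510059) are neighbours on the minus strand of chromosome 7. Gabrb2 (chr11:42419757-42629028, plus strand) and Gabra3 (chrX:72432681-72656848, minus strand) are the only listed members on their chromosomes. Exons of Gabrb1 overlap those of Gabra4, and exons of Gabra5 overlap those of the predicted gene Gm9962, each on the opposite strand; whether the counting used strand is not stated, so reads from these overlaps cannot be told apart. The promoters of Gabra3, Gabra5 and Gabrb2, the 3 members found most often, are shown because they differ in the number of CG pairs, which are marked in capitals. Each runs from 250 bases before to 50 bases after a transcription start listed by RefSeq (GRCm38.p6), 5′ to 3′ on the strand of the gene: Gabra3 at chrX:72656870-72657169 (minus strand), Gabra5 at chr7:57510010-57510309 (minus strand) and Gabrb2 at chr11:42420190-42420489 (plus strand).
Gabra3: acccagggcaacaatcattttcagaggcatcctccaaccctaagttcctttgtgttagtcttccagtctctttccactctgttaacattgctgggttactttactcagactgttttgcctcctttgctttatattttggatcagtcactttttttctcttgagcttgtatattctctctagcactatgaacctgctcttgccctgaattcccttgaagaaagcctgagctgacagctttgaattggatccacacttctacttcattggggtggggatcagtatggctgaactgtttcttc
Gabra5: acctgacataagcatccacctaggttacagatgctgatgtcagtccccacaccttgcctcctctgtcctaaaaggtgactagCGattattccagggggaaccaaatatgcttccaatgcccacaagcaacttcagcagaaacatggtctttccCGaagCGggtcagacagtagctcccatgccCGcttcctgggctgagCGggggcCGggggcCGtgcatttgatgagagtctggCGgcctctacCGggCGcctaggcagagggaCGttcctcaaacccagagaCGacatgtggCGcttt
Gabrb2: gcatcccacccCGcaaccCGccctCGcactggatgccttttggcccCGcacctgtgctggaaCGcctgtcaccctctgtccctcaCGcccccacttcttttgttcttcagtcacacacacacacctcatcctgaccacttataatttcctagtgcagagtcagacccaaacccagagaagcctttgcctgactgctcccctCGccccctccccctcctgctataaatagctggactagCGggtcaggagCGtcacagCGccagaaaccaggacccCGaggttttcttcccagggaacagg
The Gabra3 promoter held 0 CG pairs, as did the second start listed for this gene, and 5.43% of the 32851 mouse promoters of the same length held none. The Gabra5 and Gabrb2 windows held 13 and 11 CG pairs, against a median of 7 over all promoters. The letters TAATCC, the core bound by Otx2 and related homeobox factors, were searched on both strands and found in 1 of the 11 listed promoters of the 7 genes, that of Gabra2, against 7.06% of all promoters.

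Depth was alike in the 3 groups, with a median of 1091485 expected counts per Ddit4l-only, 1072603 per Vsx1-only and 1067453 per Sox6-only cell and a range of 203657 to 1945582. It differed between retinas, from a median of 748007 counts in 1Ra to 1286600 in 1la over the 3 groups. Detection at 1 TPM in the majority of cells was reached by 10 of 12 bipolar markers in Ddit4l-only, 11 in Vsx1-only and 12 in Sox6-only cells. Of 8 amacrine markers 0 reached that in any group, with a median summed level of 1.08, 0.71 and 1.43 TPM in Ddit4l-only, Vsx1-only and Sox6-only cells. In the same order, 1, 2 and 2 of 8 Müller glia markers reached it, with a median summed level of 20.1, 142 and 135 TPM. So did 2 of 7 cone markers, Pde6h and the bipolar marker Gnb3, and 2 of 5 horizontal cell markers, Calb1 and Sept4, in each group. Of 8 ganglion cell markers 0, 0 and 1 did. Rod transcripts were present in many wells, and 11 of 59 Ddit4l-only, 18 of 60 Vsx1-only and 44 of 151 Sox6-only cells had 1000 TPM or more summed over 8 rod markers. The 62 wells under 3000 genes, with a median of 8838 counts, gave each member in 0 or 1 well. Most of them were far shallower than the kept cells and set no background for them. The deepest had 1010658 counts, and 22 had enough to be thinned to 200000. Of these 22 wells, 0 had Gabra3, Gabra5 or Gabrb2 at 1 count, which allows a share of up to 13.6% for each.

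Gabra3, the alpha3 subunit, was found most often, and at its highest levels, in Ddit4l-only cells. It was at 1 TPM or more in 18 of 59 Ddit4l-only cells (30.5%, exact 95% interval 19.2 to 43.9), 5 of 60 Vsx1-only cells (8.33%, 2.76 to 18.4) and 14 of 151 Sox6-only cells (9.27%, 5.16 to 15.1); the intervals cover counting error only. In the 18 Ddit4l-only cells the level split into a low range, 8 cells between 1.49 and 8.16 TPM, and a high range, 10 cells between 68.6 and 486 TPM, with no cell between. All 4 retinas gave cells of the high range: 1la gave 1, 1Ra gave 2, 2la gave 4 and 2Ra gave 3. Among the other groups 0 Vsx1-only cells and 1 Sox6-only cell, at 50.3 TPM, reached 20 TPM. Averaged over all cells of a retina, Gabra3 was at 7.83, 16.7, 49.2 and 35.8 TPM in the Ddit4l-only cells of 1la, 1Ra, 2la and 2Ra, at 0.305, 0.0867, 0.0564 and 1.14 TPM in the Vsx1-only cells, and at 0.521, 1.06, 0.0707 and 1.64 TPM in the Sox6-only cells. The 4 Ddit4l-only means lay above all 8 others, and the Vsx1-only and Sox6-only means overlapped. Thinning every cell to 200000 counts, with detection then at 1 count, left a share of 22% of Ddit4l-only, 0% of Vsx1-only and 7.95% of Sox6-only cells; 0 of 60 cells allows a share of up to 5%. Ddit4l-only cells rich in rod transcripts had Gabra3 in 4 of 11, and the other Ddit4l-only cells in 14 of 48. Outside the groups it was in 4 of 18 cells with more than 1 marker and 4 of 33 with none, of which 1 reached 20 TPM.

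Gabra5, the alpha5 subunit, was the member found most often in each group except the Vsx1-only cells. It was at 1 TPM or more in 28 of 59 Ddit4l-only cells (47.5%, 34.3 to 60.9), 23 of 60 Vsx1-only cells (38.3%, 26.1 to 51.8) and 81 of 151 Sox6-only cells (53.6%, 45.4 to 61.8), and in 7 of 18 cells with more than 1 marker and 12 of 33 with none. Its levels were mostly modest, with a median of 9.61, 5.01 and 9.9 TPM over the Ddit4l-only, Vsx1-only and Sox6-only cells that had it. The highest cells were at 143, 25.5 and 92.7 TPM in the same order. The 3 cells with the most Gabra5 counts held 56.1% of those of Ddit4l-only, 29% of Vsx1-only and 21% of Sox6-only cells. Mean levels per retina were 16.8, 4.39, 17.6 and 1.87 TPM in Ddit4l-only cells of 1la, 1Ra, 2la and 2Ra, 2.85, 2.48, 3.13 and 3.72 TPM in Vsx1-only cells, and 12.7, 5.2, 11.5 and 4.78 TPM in Sox6-only cells. The Vsx1-only means lay below all 4 Sox6-only means, and the Ddit4l-only means overlapped both. The share also differed between retinas: 60% and 70% of Ddit4l-only cells of 1la and 2la had Gabra5, against 26.3% and 30% of those of 1Ra and 2Ra. In Vsx1-only cells it was 37.5% and 50% in 1la and 2la, and 27.8% and 41.7% in 1Ra and 2Ra. In Sox6-only cells it was 66.7% and 63% in 1la and 2la, and 36.7% and 45.2% in 1Ra and 2Ra. After thinning to 200000 counts the Ddit4l-only shares were 60%, 21.1%, 70% and 30% in 1la, 1Ra, 2la and 2Ra, the Vsx1-only shares 31.2%, 16.7%, 28.6% and 41.7%, and the Sox6-only shares 57.6%, 30%, 60.9% and 42.9%. In the thinned Vsx1-only cells 2Ra was the highest. The median number of genes per cell also differed, with 6677 and 6871 in 1la and 2la and 5311 and 5977 in 1Ra and 2Ra; its part in the result was not tested.

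Gabra2, the alpha2 subunit, was rare, in 4 of 59 Ddit4l-only, 4 of 60 Vsx1-only and 7 of 151 Sox6-only cells. Its summed counts came mostly from 1 cell per group, which gave 93.1% of them in Ddit4l-only, 76.3% in Vsx1-only and 57% in Sox6-only cells. Of 321 kept cells, 3 had 20 TPM or more. The highest, at 95 TPM in a cell with none of the 3 markers, also had 1007 TPM of Gad1, the enzyme that makes GABA, and 0.46 TPM of Grm6, which encodes the mGluR6 receptor that ON bipolar cells use. The next, a Ddit4l-only cell at 77.5 TPM, had 422 TPM of Gad1 and 7181 TPM of rod markers; Gad1 was at 1 TPM or more in only 2 of 59 Ddit4l-only cells. The third, a Sox6-only cell at 27.6 TPM, had 0.36 TPM of Gad1 and 1397 TPM of Grm6.

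**Figure D1:**
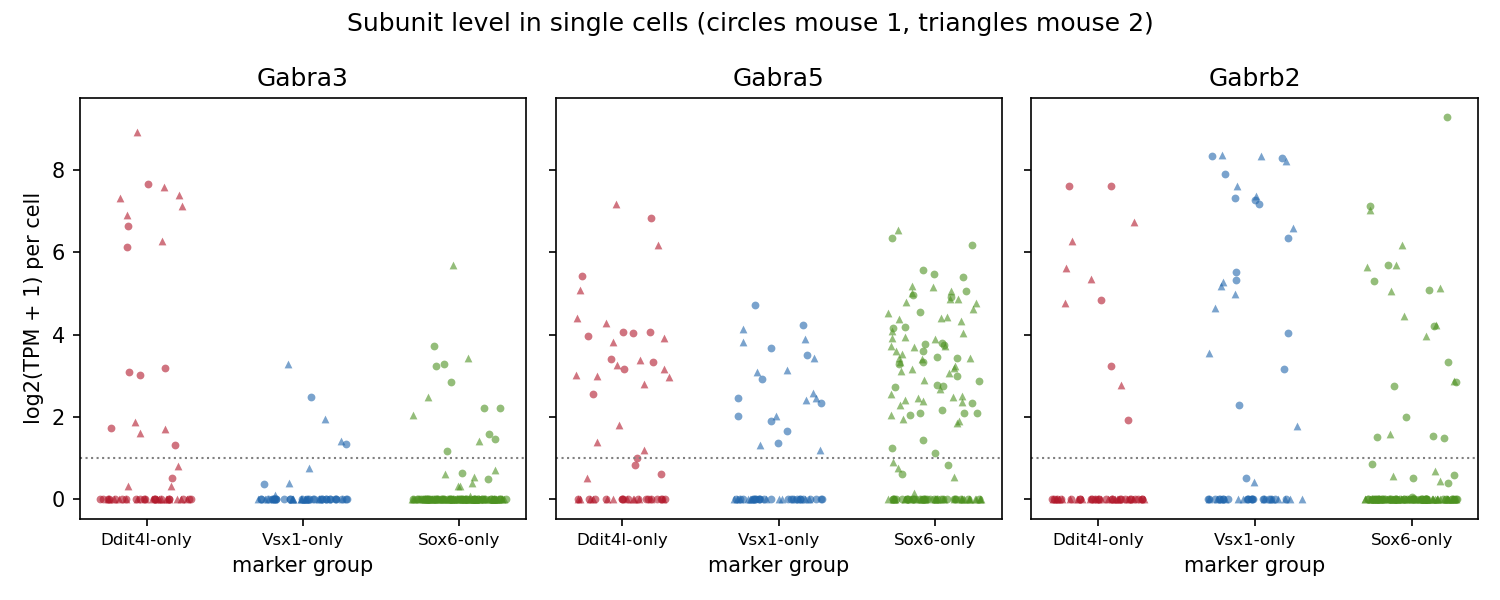
Each point is 1 cell and gives log2(TPM + 1) of Gabra3, Gabra5 or Gabrb2 on the vertical axis, by marker group on the horizontal axis, with circles for mouse 1, triangles for mouse 2 and a dotted line at 1 TPM. The high Gabra3 points, from 68.6 to 486 TPM, stand in the Ddit4l-only cells, and Gabrb2 reaches 100 TPM in 11 Vsx1-only cells.

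Gabrb2, the beta2 subunit, was found more often in the Vsx1-only cells. It was at 1 TPM or more in 11 of 59 Ddit4l-only cells (18.6%, 9.69 to 30.9), 24 of 60 Vsx1-only cells (40%, 27.6 to 53.5) and 24 of 151 Sox6-only cells (15.9%, 10.5 to 22.7), and in 5 of 18 cells with more than 1 marker and 10 of 33 with none. Thinning to 200000 counts gave 18.6%, 40% and 15.2% for the Ddit4l-only, Vsx1-only and Sox6-only cells. Where it was present it was often high: the median over cells that had it was 39.5 TPM in Ddit4l-only, 87.8 TPM in Vsx1-only and 19.4 TPM in Sox6-only cells, and 3, 11 and 3 of these cells reached 100 TPM. Mean levels per retina were 3.9, 20.4, 14.8 and 0.591 TPM in Ddit4l-only cells of 1la, 1Ra, 2la and 2Ra, 77.1, 15.8, 31.4 and 91.8 TPM in Vsx1-only cells, and 26.6, 1.74, 3.58 and 6.32 TPM in Sox6-only cells. Within each retina except 1Ra the Vsx1-only mean was the highest of the 3, while the ranges of the groups over retinas overlapped. Few cells weighed heavily in these levels. A single cell held 23% of the Gabrb2 counts of Ddit4l-only, 14.7% of Vsx1-only and 31.4% of Sox6-only cells. The highest Sox6-only cell was at 621 TPM and the next at 138 TPM.

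In Sox6-only cells Gabrb2 went with rod transcripts. The 24 Sox6-only cells with Gabrb2 had a median of 3063 TPM of rod markers, against 148 TPM in the 127 without it. It was in 14 of 44 Sox6-only cells with 1000 TPM or more of rod markers (31.8%) and in 10 of 107 below that (9.35%). Above and below that level it was in 2 of 11 (18.2%) and 9 of 48 (18.8%) Ddit4l-only cells, and in 7 of 18 (38.9%) and 17 of 42 (40.5%) Vsx1-only cells. The part of rod transcripts in the Sox6-only level was not tested.

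Gabrb1, the beta1 subunit, was nearly absent and high in a few cells. It was at 1 TPM or more in 0 of 59 Ddit4l-only cells, which allows a share of up to 5.08%, in 1 of 60 Vsx1-only cells and in 0 of 151 Sox6-only cells, which allows up to 1.99%. The Vsx1-only cell, of retina 2Ra, had 243 TPM and 99.6% of the counts of its group. Among the 33 cells with none of the markers, 3 had Gabrb1, and 2 of these were at 258 and 221 TPM. All 3 kept cells above 200 TPM of Gabrb1 also had Gabrb2, at 95.1 TPM in the Vsx1-only cell and at 175 and 400 TPM in the 2 cells with none of the markers. These 2 cells with none of the markers had 10.1 and 1.81 TPM of Grm6, and 323 and 317 TPM of Otx2, a bipolar and photoreceptor factor.

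The gamma subunits were rare as well at 1 TPM. Gabrg3 was at 1 TPM or more in 4 of 59 Ddit4l-only cells (6.78%), 1 of 60 Vsx1-only cells (1.67%) and 6 of 151 Sox6-only cells (3.97%), and 2, 0 and 3 of these cells reached 20 TPM. At an expected count of 1 the shares were 18.6% of Ddit4l-only, 16.7% of Vsx1-only and 15.2% of Sox6-only cells, so how rare it is depends on the threshold. The 2 high Ddit4l-only cells, at 57.1 and 53 TPM, both came from retina 2Ra, and 1 of them also had 76.5 TPM of Gabra3, with 8964 TPM of rod markers. Gabrg1 was in 0 of 59 Ddit4l-only, 0 of 60 Vsx1-only and 3 of 151 Sox6-only cells. A single Sox6-only cell at 104 TPM held 96.7% of its counts in that group, and a cell with more than 1 marker had 125 TPM.

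**Figure D2:**
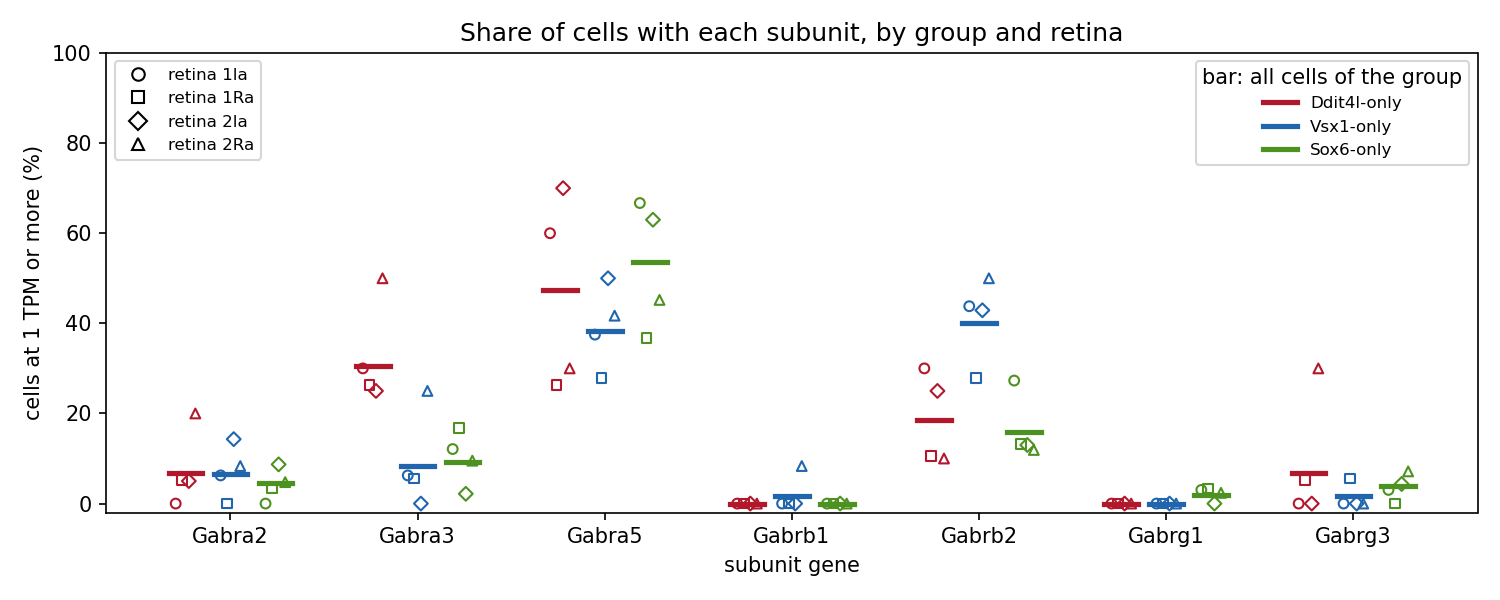
The vertical axis gives the percentage of cells with each subunit at 1 TPM or more, for the 7 genes on the horizontal axis; bars are all cells of a marker group and open symbols the 4 retinas. Gabra3 lies highest in Ddit4l-only cells (30.5%), Gabrb2 in Vsx1-only cells (40%), and Gabrb1, Gabrg1, Gabrg3 and Gabra2 stay under 7% in every group.

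Differences between groups were tested over mice, with counts summed per mouse and group and the mouse as a block in 1 model of 16643 genes. A gene was called at a Benjamini-Hochberg adjusted p under 0.05 in edgeR's quasi-likelihood test and a fold of at least 2. Gabrb1 and Gabrg1 did not pass the filter on low counts, and 0 of the 5 members tested were called in any comparison. The background was as sparse, with 0.024% of genes called for Ddit4l-only against Vsx1-only cells, 0% for Ddit4l-only against Sox6-only and 0% for Vsx1-only against Sox6-only. At an unadjusted p under 0.05 stood 3 of 5 members in the first comparison against 12.9% of genes, 1 of 5 in the second against 8.06% and 2 of 5 in the third against 8.59%.

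Gabra3 had 19.7 and 67.2 CPM (a count corrected for the size of its library) in the Ddit4l-only sums of mouse 1 and mouse 2, 0.0923 and 0.267 CPM in the Vsx1-only sums and 0.315 and 2.1 CPM in the Sox6-only sums. The Ddit4l-only sums were the higher in both mice. Its log2 fold change was 7.86 ± 0.86 (SE) for Ddit4l-only against Vsx1-only (adjusted p = 0.118) and 5.43 ± 0.76 for Ddit4l-only against Sox6-only (adjusted p = 0.37). Without retina 2Ra these were 9.8 and 7.85, and 1 cell held 70.5% of the Sox6-only counts. The first rests on 3 and 8 counts in the Vsx1-only sums. The ratio of the sums per library size was 216 in mouse 1 (counting interval 73.6 to 1051) and 256 in mouse 2 (129 to 593). These intervals take reads, which carried no molecular identifiers, as independent counts. They leave out the spread between cells and between mice, so the ratio is less well bounded than they show. Vsx1-only against Sox6-only gave -2.43 ± 0.71 (adjusted p = 0.501), and -0.59 where the marker gate was set at 50 TPM.

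Gabrb2 had 22.2 and 25.1 CPM in the Ddit4l-only sums, 68.3 and 78.9 CPM in the Vsx1-only sums and 24.6 and 8.81 CPM in the Sox6-only sums of mouse 1 and mouse 2. The Vsx1-only sums were the highest in both mice, and the Ddit4l-only and Sox6-only sums overlapped. Its log2 fold change was -1.64 ± 0.59 for Ddit4l-only against Vsx1-only (adjusted p = 0.376), 0.6 ± 0.6 for Ddit4l-only against Sox6-only (adjusted p = 0.876) and 2.24 ± 0.62 for Vsx1-only against Sox6-only (adjusted p = 0.474). Ddit4l-only against Sox6-only rested on single retinas: it was 2.56 without 1la, -0.66 without 1Ra and -0.86 without 2la. Ddit4l-only against Vsx1-only gave -0.53 without 1la and -3.75 without 2la, and Vsx1-only against Sox6-only gave 3.85 without the cells rich in rod transcripts.

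Gabra5 had 15.6 and 20.4 CPM in the Ddit4l-only sums, 4.4 and 5.81 CPM in the Vsx1-only sums and 18.8 and 13.9 CPM in the Sox6-only sums. In both mice the Vsx1-only sum was the lowest of the 3. Its log2 fold change was 1.82 ± 0.65 for Ddit4l-only against Vsx1-only (adjusted p = 0.37), 0.12 ± 0.63 for Ddit4l-only against Sox6-only (adjusted p = 0.994) and -1.7 ± 0.65 for Vsx1-only against Sox6-only (adjusted p = 0.584). Without retina 2la the values were 0.33, -0.72 and -1.05 in the same order. Each comparison shares cells with the other two, so they are not independent of each other.

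Other tools called some of these. DESeq2's Wald test on the same sums called Gabra3 in Ddit4l-only cells against both other groups and Gabrb2 in Vsx1-only against Sox6-only cells, 1 of 5 members each time, where it called 9.69%, 4.59% and 5.1% of genes for Ddit4l-only against Vsx1-only, Ddit4l-only against Sox6-only and Vsx1-only against Sox6-only. With sums per retina and the retina as block, edgeR called 1 of the 4 members it tested, Gabra3 in Ddit4l-only against Vsx1-only cells (adjusted p = 0.0259), where 2.23% of genes were called, and 0 of 4 in Ddit4l-only against Sox6-only (0.517% of genes) and Vsx1-only against Sox6-only (0.793%). Retinas of 1 mouse are not separate animals, so those p-values are too small. The linear model of limma on mean log2(TPM + 1) per mouse and group called Gabra3 and Gabrb2, 2 of 5 members, in Ddit4l-only against Vsx1-only cells (4.2% of genes), 0 of 5 in Ddit4l-only against Sox6-only (1.11%) and Gabrb2 in Vsx1-only against Sox6-only (2.26%).

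**Figure D3:**
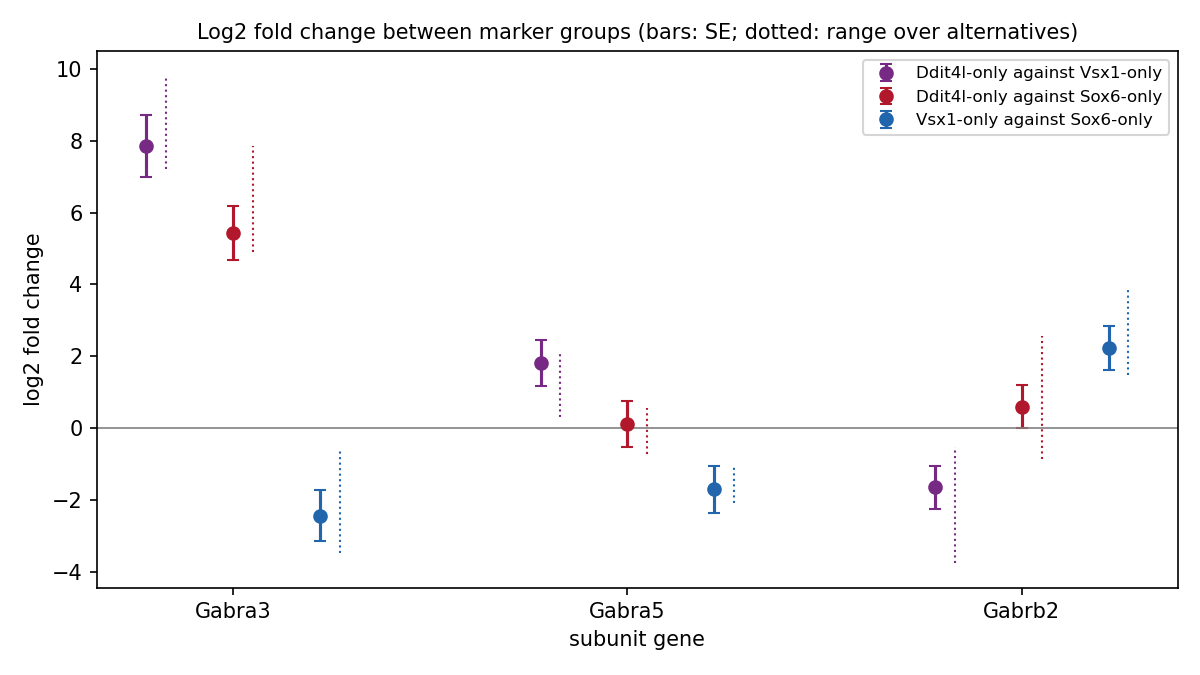
Points give the log2 fold change of Gabra3, Gabra5 and Gabrb2 in edgeR for the 3 comparisons of marker groups. Bars are 1 SE, derived from the F statistic of the quasi-likelihood test on the sums of 2 mice. Dotted lines span the values under the alternative settings that estimate the same fold change. Gabra3 stays above 4 on this axis in both comparisons of Ddit4l-only cells, and the Gabra5 and Gabrb2 values of Ddit4l-only against Sox6-only cells cross 0.

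Most cells held only 1 of the 7 transcripts. Of the 270 cells of the 3 groups, 75 had no member at 1 TPM, 142 had 1, 43 had 2 and 10 had 3. An alpha member was in 41 of 59 Ddit4l-only, 27 of 60 Vsx1-only and 93 of 151 Sox6-only cells, a beta member in 11, 24 and 24 of them, and a gamma member in 4, 1 and 9. The commonest state of Ddit4l-only cells was Gabra5 alone in 16 cells, followed by no member in 13 and Gabra3 alone in 9. Vsx1-only cells most often had no member, in 19, followed by Gabrb2 alone in 13 and Gabra5 alone in 10. In Sox6-only cells Gabra5 alone came first, in 59, followed by no member in 43 and Gabrb2 alone in 11.

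An alpha, a beta and a gamma member were found together in 0 of 59 Ddit4l-only, 0 of 60 Vsx1-only and 1 of 151 Sox6-only cells. A count of 0 allows a share of up to 5.08% of Ddit4l-only and 5% of Vsx1-only cells, and the exact 95% interval of the Sox6-only share of 0.662% was 0.0168 to 3.63. The 1 cell, of retina 1la, had 3.26 TPM of Gabra5, 1.8 TPM of Gabrb2 and 115 TPM of Gabrg3. Taking an expected count of 1 as detection gave 1, 2 and 7 such cells in Ddit4l-only, Vsx1-only and Sox6-only cells. Outside the groups, 1 cell with none of the markers held 6 of the 7 members, and it had 13002 genes, against a median of 6166 in such cells. With all 16 subunit genes counted, an alpha, a beta and a gamma subunit were together in 41 of 59 Ddit4l-only, 49 of 60 Vsx1-only and 98 of 151 Sox6-only cells.

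The commonest pair was Gabra5 with Gabrb2, in 28 of 270 cells. An alpha and a beta member were together in 8 of 59 Ddit4l-only, 10 of 60 Vsx1-only and 13 of 151 Sox6-only cells. At 1 TPM an alpha member was in 52.5% of the 59 cells with a beta member and in 61.6% of the 211 cells without one. By group, it was in 72.7% with and 68.8% without a beta member in Ddit4l-only, 41.7% and 47.2% in Vsx1-only, and 54.2% and 63% in Sox6-only cells, and at 5 TPM in 60% and 55.1%, 36.4% and 15.8%, and 26.3% and 45.5%. An alpha member reached 20 TPM in 39 of the 270 cells and a beta member in 39, and 0 cells had both; alpha members were this high in 16.9% of the 231 cells without a high beta member. At 10 TPM 5 cells had both, of 72 with an alpha and 44 with a beta member, and at 5 TPM 19 cells, of 112 and 51. By group, the alpha-high and beta-high cells numbered 14 and 8 in Ddit4l-only, 1 and 19 in Vsx1-only and 24 and 12 in Sox6-only cells. Among the 33 cells with none of the markers, 1 had both above 20 TPM. In Ddit4l-only cells, Gabra3 was in 17.9% of the 28 cells with Gabra5 and in 41.9% of the 31 without it, lower with Gabra5 in both mice, while 3 cells had both at 20 TPM or more. In Vsx1-only cells the shares with and without Gabra5 were 8.7% and 8.11%, and in Sox6-only cells 8.64% and 10%, with 18.2% and 10% in mouse 1 and 2.08% and 10% in mouse 2.

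**Figure D4:**
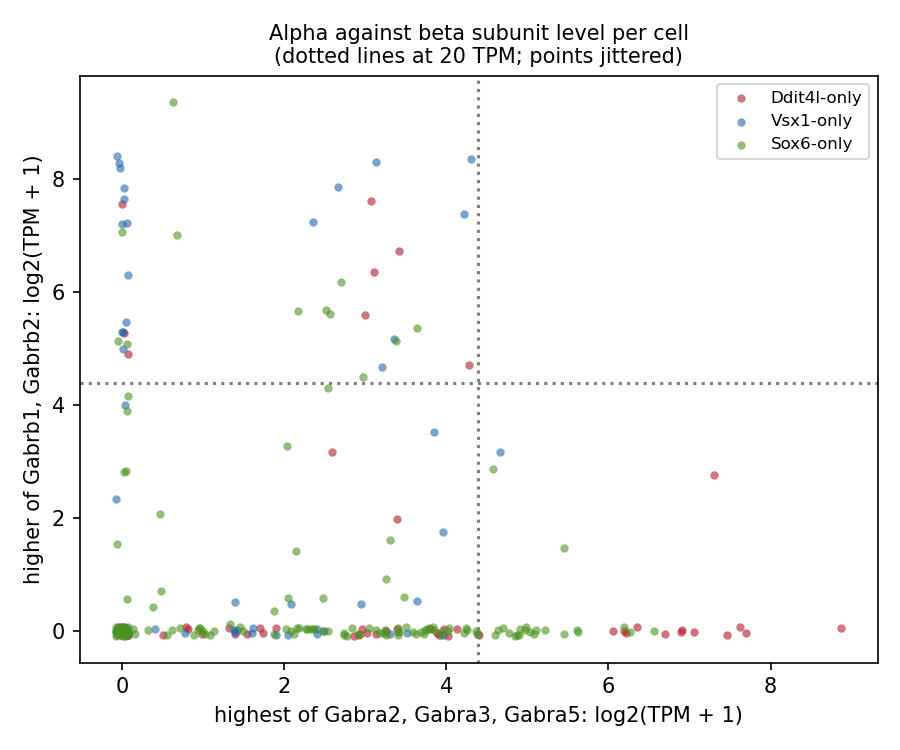
Each point is 1 of 270 cells, with the highest alpha member on the horizontal and the higher beta member on the vertical axis, both as log2(TPM + 1) and slightly jittered; dotted lines mark 20 TPM. The upper right field is empty, while 39 cells lie right of the vertical line and 39 above the horizontal one.

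**Figure D5:**
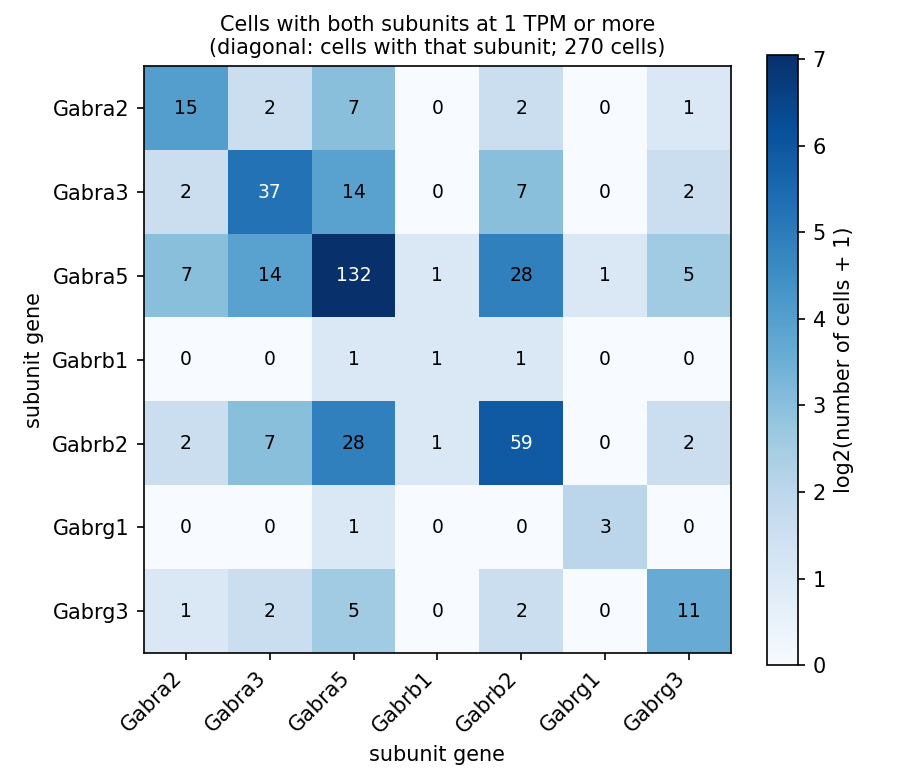
The number in each field counts the cells, of 270, with both the row and the column gene at 1 TPM or more, the diagonal counts the cells with that gene, and the colour is log2(number + 1). Gabra5 and Gabrb2 shared 28 cells, and Gabra5 and Gabra3 shared 14.

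The 7 members made up a small part of the GABA-A receptor transcripts. Their summed mean level was 55.8 TPM in Ddit4l-only, 59.1 TPM in Vsx1-only and 21.7 TPM in Sox6-only cells, or 9.86%, 7.6% and 4.66% of the family, the other 9 subunits together giving 510, 719 and 445 TPM. The share ranged over retinas from 6.91% to 12.6% in Ddit4l-only, 3.09% to 18.8% in Vsx1-only and 2.31% to 7.78% in Sox6-only cells, so the groups overlapped. The 3 rho subunits, which form the GABA-C receptor, summed to 959 TPM in Ddit4l-only, 2461 TPM in Vsx1-only and 2770 TPM in Sox6-only cells.

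Other genes of GABA signalling were followed as lists. In edgeR on the sums per mouse, 0 of their genes were called, higher or lower, in any of the 3 comparisons. Other tools called some, as given below. On retina sums edgeR called 2.23%, 0.517% and 0.793% of all genes for the comparisons in the order used above. DESeq2 called 9.69%, 4.59% and 5.1%. Of the 9 other GABA-A subunits 5 were tested, with a median log2 fold change of -0.29 for Ddit4l-only against Vsx1-only, -0.14 for Ddit4l-only against Sox6-only and -0.05 for Vsx1-only against Sox6-only cells. Of the 5 GABA-C and GABA-B receptor genes, 3 stood at an unadjusted p under 0.05 for Ddit4l-only against Vsx1-only cells (12.9% of all genes), 2 for Ddit4l-only against Sox6-only (8.06%) and 0 for Vsx1-only against Sox6-only (8.59%). The median log2 fold change in the first was -0.78, against -0.01 over all genes. Gabrr2, the rho2 subunit, gave -2.33 ± 0.18 in that comparison (adjusted p = 0.0956) and -2.53 ± 0.19 for Ddit4l-only against Sox6-only (adjusted p = 0.273), and Gabbr2, a subunit of the metabotropic GABA-B receptor, gave -1.77 ± 0.48 and -2.27 ± 0.49 (adjusted p = 0.292 and 0.477). Gabrr3, the rho3 subunit, named after its values were seen, lay the other way, at 64.1 and 86.5 CPM in the Ddit4l-only sums of mouse 1 and mouse 2, 12.7 and 0.468 CPM in the Vsx1-only sums and 0.662 and 9.01 CPM in the Sox6-only sums. Of the 17 anchoring, assembly and trafficking genes tested, 2 stood at that unadjusted level for Ddit4l-only against Vsx1-only (12.9% of all genes), 1 for Ddit4l-only against Sox6-only (8.06%) and 6 for Vsx1-only against Sox6-only cells (8.59%). The median in the last was 0.21, against -0.05 over all genes. The most abundant, Nsf, an ATPase that takes part in vesicle fusion and receptor trafficking, gave -1.32 ± 0.15 for Ddit4l-only against Vsx1-only and 1.09 ± 0.15 for Vsx1-only against Sox6-only (adjusted p = 0.119 and 0.236). Iqsec3, a synaptic exchange factor that binds the scaffold gephyrin, gave -0.96 ± 0.19 for Vsx1-only against Sox6-only (adjusted p = 0.37). Among the 6 tested genes of GABA synthesis, release, uptake and breakdown, the transporter Slc6a11 gave -4.37 ± 0.52 for Ddit4l-only against Vsx1-only and 3.44 ± 0.5 for Vsx1-only against Sox6-only (adjusted p = 0.125 and 0.251), and Abat, which breaks GABA down, 2.14 ± 0.64 for Ddit4l-only against Sox6-only (adjusted p = 0.542). Of the 4 genes of the chloride gradient, Slc12a5, the exporter KCC2, gave -0.65 ± 0.14 for Ddit4l-only against Vsx1-only (adjusted p = 0.231) and 0.36 ± 0.14 for Vsx1-only against Sox6-only (adjusted p = 0.587). Other abundant genes of these lists, Gabrr1, Gabbr1, Gabarapl1, Gabarapl2, Aldh5a1, Wnk1, Slc12a2 and Stk39, gave values between -1.04 and 1.36 in the 3 comparisons. Leaving the other GABA-A subunits aside, edgeR on retina sums called Gabrr2 lower in Ddit4l-only cells than in both other groups. Nsf was called higher in Vsx1-only cells than in both others. DESeq2 called these too, and Gabbr2 lower in Ddit4l-only cells than in both others. It also called Slc6a11 higher in Vsx1-only cells than in both others, and Abat higher in Ddit4l-only than Sox6-only cells. Against Sox6-only cells, Hap1 was called higher and Gad1 lower in Vsx1-only cells.

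Over the 12 sums per retina and marker group, the genes whose log2(CPM + 1) ran most like that of Gabra3 were Nsg2 (Pearson r = 0.962), Kcnh7 (0.954) and Gm17167 (0.949), out of 7119 genes with a mean of at least 20 CPM. For Gabra5 they were Cul9 (0.895), Sec24c (0.885) and Ece2 (0.881), and for Gabrb2 Ndst1 (0.872), Rab4a (0.858) and A830080D01Rik (0.857). The 12 sums share animals, plates and depth, so these values describe the data and carry no p. The nearest to the 4 rare members were Prpf4b for Gabra2 (0.83), Rtn3 for Gabrb1 (0.825), Oaz2 for Gabrg1 (0.741) and AI593442 for Gabrg3 (0.949), and these rest on a few cells.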

How the data were processed

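The submitters' processing notes name RSEM 1.2.28 and TopHat2 2.0.10 with the build mm10; the annotation and the use of strand are not given in the sources used here. The authors deposited RSEM expected counts, not normalised, and TPM, per gene and cell. Here, expected counts were rounded and summed per mouse and marker group (6 sums, 2 mice), and fitted with edgeR 4.0.16 (filterByExpr, TMM, quasi-likelihood test, mouse as block, R 4.3.3), leaving out Sox6, Vsx1 and Ddit4l, which made the groups. CPM were computed from these sums. DESeq2 1.42.0 and limma 3.58.1 (on log2(TPM + 1)) were alternatives. The replicate is the mouse, and the groups are paired by design, since each mouse gave cells of every group. Deviations of same-mouse sums from their group means correlated at only 0.0232 to 0.0735, so the sums of a mouse shared little. With 2 mice the deviations of 1 mouse mirror those of the other, so this is a single check. Each SE of an edgeR log2 fold change is its absolute value divided by the square root of the F statistic of that test. It is not the spread of 2 mouse values. The fit had 2 residual degrees of freedom. It was run on simulated data to check the direction of planted changes, and its power to call them is not given here. A count of 0 members called therefore does not show that the groups are alike. Shares have exact Clopper-Pearson intervals at 95%; a count of 0 allows 3 cells; both cover counting error only. In pooled sums, fewer positive cells and less RNA per cell cannot be told apart. The subunits, the lists and the grouping were chosen with earlier results of these data known. By rule, the text names all 7 members, any called gene of a list and otherwise up to its 4 most abundant genes, and up to 3 genes nearest to each member by correlation. Some further results are not reported here.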

Additional observations from a re-analysis of the deposited data

Results flagged for a closer look

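Of 18 member and group combinations over 4 retinas, 6 had 1 retina far from the other 3, where chance flags about 1 in 20 groups of normal values; a transcript carried by 1 cell gives such a gap by construction, so the rate does not apply to these means. Gabra2 in Ddit4l-only cells averaged 7.87 TPM in retina 2Ra and at most 0.153 TPM in the others, and in Vsx1-only cells 1.17 TPM in 2la and at most 0.17 TPM elsewhere. Gabrb1 in Vsx1-only cells averaged 20.3 TPM in 2Ra, where 1 cell carried it, and at most 0.0519 TPM elsewhere. Gabrg1 in Sox6-only cells averaged 3.17 TPM in 1la, from 1 cell at 104 TPM, and at most 0.139 TPM elsewhere. Gabrg3 in Ddit4l-only cells averaged 11.2 TPM in 2Ra, from cells at 57.1 and 53 TPM, and at most 0.117 TPM elsewhere, and in Vsx1-only cells 1.15 TPM in 1Ra and at most 0.0779 TPM elsewhere.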

How the results depend on the processing

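The number of members called was 0 in edgeR and moved under other tools: for Ddit4l-only against Vsx1-only to 1 with DESeq2, 1 with sums per retina and 2 with limma, for Ddit4l-only against Sox6-only to 1 with DESeq2, and for Vsx1-only against Sox6-only to 1 with DESeq2 and 1 with limma; the cause was not tested. It stayed at 0 in every fit with 1 retina left out. Over all genes, calls were 4, 0 and 0 for Ddit4l-only against Vsx1-only, Ddit4l-only against Sox6-only and Vsx1-only against Sox6-only. DESeq2 called 1612, 764 and 849, limma 699, 184 and 376, and edgeR on retina sums 323, 75 and 115. Without the replicate block, which pairs groups by mouse, calls were 50, 0 and 13, and no member was called. Without a filter on low counts 3 genes were called for Vsx1-only against Sox6-only, and with the marker gate at 50 TPM 1. Leaving out cells rich in rod transcripts gave 0 for Ddit4l-only against Vsx1-only, and leaving out 1 retina 0 to 8. The other 2 comparisons gave 0 to 0 when 1 retina was left out. The share of cells with a complete alpha, beta and gamma set moved to 1.69%, 3.33% and 4.64% of Ddit4l-only, Vsx1-only and Sox6-only cells at an expected count of 1, and in Ddit4l-only cells to 1.69% after thinning, where detection is also 1 count and not 1 TPM, and 1.64% with the gate at 10 TPM. It lay at 0 to 0 in Ddit4l-only and Vsx1-only cells and at 0 to 0.952 in Sox6-only cells when 1 retina was left out.

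Of 9 log2 fold changes of Gabra3, Gabra5 and Gabrb2, 7 kept their direction under all alternatives. For Ddit4l-only against Sox6-only, Gabra5 turned to -0.075 with retina sums, -0.16 with limma and -0.47 without the highest cell per mouse and group, an alternative chosen after seeing the data, and ran from -0.721 to 0.549 when a retina or mouse was left out. Gabrb2 in that comparison ran from -0.856 to 2.559 when a retina or mouse was left out. Depth limits the shares, since a cell may hold a subunit below detection: with cells thinned to 200000 counts and detection at 1 count, the Gabra5 share of Vsx1-only cells was 28.3%, against 38.3% at 1 TPM and full depth.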

Other observations

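Among the wells under 3000 genes, which enter no comparison, 1 well of retina 1la had 636 TPM of Gabra2 from 543 expected counts, with 1677 genes, 904 TPM of the bipolar and photoreceptor factor Otx2 and 170 TPM of Prkca, a marker of rod bipolar cells. It held 0 TPM of Gad1. No kept cell had more than 95 TPM of Gabra2.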
